A study of Mus musculus with 32 samples.

Results

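Mice of one inbred or congenic strain are meant to carry the same genome, and what still differs between their brains can be measured array by array. The variation described here is that between 32 naïve adult male mice of 4 strains, after the mean of each strain had been subtracted from every probe. Whole brain RNA of each mouse was hybridized to one Illumina Mouse Ref8 v2 array, a bead array whose probes mostly read one gene each. A probe entered if its detection p-value, the chance of so bright a signal from the array's negative controls, was under 0.01 on all 32 arrays, which 9963 of 25697 probes were, standing for 7223 named genes. A further 277 probes missed the rule on a single array, and 12237 were detected on none. The spread of a probe was taken as the standard deviation (SD) of its log2 signal between mice of a strain, and pooled over the strains with 28 degrees of freedom.

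The strains were C57BL/6J (B6, n = 10), DBA/2J (D2, n = 6) and a pair of reciprocal congenics. R8 (n = 10) carries a 1.1 Mb segment of D2 chromosome 1 on the B6 background, and R2 (n = 6) carries a 10.2 Mb segment of B6 chromosome 1 on the D2 background. The congenics were made for a locus of alcohol withdrawal and were bred in the authors' colony, while background animals were bred there or bought, so strain and origin may overlap. No animal had received alcohol. That mice of a strain were genetically identical rests on the breeding described and was not checked, and age in days, cage and litter are not given in the sources used here.

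Brain transcripts can differ between such animals in several known ways. Immediate early genes are switched on within minutes by neuronal firing and fall again soon after. Neuropeptide and monoamine genes are expressed by small nuclei, so their level in whole brain reflects few cells. Globin transcripts enter with blood, and choroid plexus transcripts with an epithelium of the ventricles. In bulk tissue a smaller number of cells of a type and less RNA per cell cannot be told apart.

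The arrays were of similar brightness, with a median raw signal between 380.2 and 578.5 and between 10834 and 12283 probes detected. Markers of neurons, astrocytes, oligodendrocytes and microglia were detected in all 32 brains, except for Snap25, whose probe was detected in none, and none of the 4 pituitary markers was detected in all. D2 replicate 1 stood apart. Its mean absolute deviation from the strain mean, scaled here and below for strain size, was 0.231 on the log2 scale. In the other D2 mice it was 0.104 to 0.140, and in the other strains 0.101 to 0.142. The methods of the study state that outliers were taken out, and this array is among the 32 analysed here. It was kept, and the main values that it moved are also given without it.

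The brains of a strain were much alike. The median probe had a pooled SD of 0.147 on the log2 scale, which as a fold is 1.11, and 95% of probes were below 0.247, or 1.19-fold. By strain the median SD was 0.130 in B6, 0.136 in R8, 0.127 in R2 and 0.163 in D2, and the D2 value fell to 0.131 without D2 replicate 1. Spread depended on brightness. Over the 9963 probes, SD and mean signal had a Spearman rho of -0.65, and the median SD went from 0.20 in the dimmest 20% of probes to 0.107 in the brightest 20% (0.201 and 0.125 after scaling each array by its median, which leaves the quantiles unequal). Of the 100 probes with the largest SD, 52 lay in the dimmest 20% and 3 in the brightest.

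**Figure D1:**
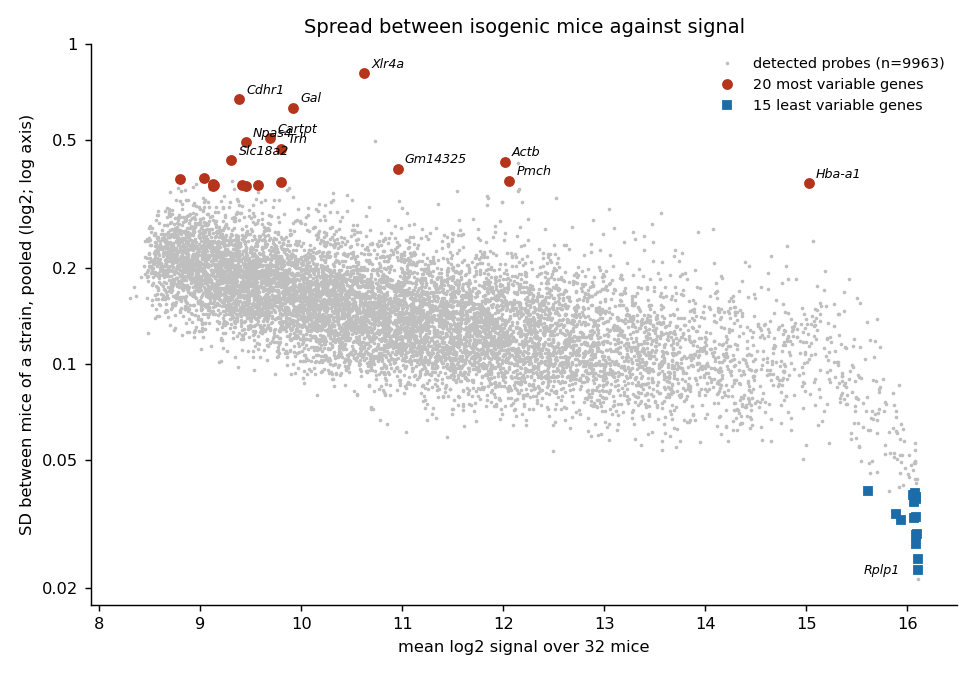
Each point is a probe, with its mean log2 signal over 32 mice on the x axis and its pooled within-strain SD (log2 units, log axis) on the y axis; red circles mark the 20 most variable genes and blue squares the 15 least variable. Spread falls as signal rises, Xlr4a lies highest at 0.81, and the least variable genes sit together at the bright end.

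A small set of genes varied far more than the rest. Xlr4a led, followed by Cdhr1, Gal, Cartpt, Npas4, Trh, Slc18a2, Actb, Gm14325 and Cacng7, with pooled SDs from 0.81 down to 0.381, and the 20 most variable genes closed with Fabp7 (0.361) and Slc22a17 (0.359). Without D2 replicate 1 the SD of Cacng7 was 0.325 (0.117 in D2, against 0.50 with it), that of Gm14325 0.334 and that of Actb 0.39. As the members of this top 20 were taken for their spread, their SDs are a description. All 20 were also among the 5% most variable probes by the authors' own normalized values, after median scaling and without D2 replicate 1, where Zfr had the lowest place, rank 177.

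Xlr4a is an X-linked gene of the lymphocyte-regulated family, on chrX:73074343-73082527 (GRCm38.p6), of which a male carries a single X chromosome's copy. Its pooled SD was 0.81 (95% interval 0.643 to 1.10). In B6 its log2 signal ran from 9.55 through a median of 10.59 to 11.64, a range of 4.29-fold, and in R8 from 8.21 through 10.79 to 11.61, or 10.6-fold. In R2 it ran from 9.23 through 10.26 to 11.67, or 5.43-fold, and in D2 from 10.32 through 11.15 to 11.61, or 2.44-fold. The strains overlapped fully, and 90.5% of the variance of the probe lay within strains. Xlr4a belongs to a family of near-identical copies, so the probe may read more than one of them. Of the other Xlr probes on the array, each was detected on 0 or 1 of 32 arrays.

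Cdhr1, a cadherin known from photoreceptors and from the mitral cells of the olfactory bulb, had a pooled SD of 0.67 (0.534 to 0.910). Its log2 signal was 8.56 to 10.51 in B6 (median 9.35), 8.30 to 10.53 in R8 (median 9.71), 8.68 to 10.57 in R2 (median 9.20) and 8.15 to 10.33 in D2 (median 9.17). Each strain therefore held mice that differed 3.69-fold to 4.70-fold. The probes whose deviations ran most alike with Cdhr1 over the 32 mice were those of Dlx1, a homeobox gene of inhibitory interneurons (r = 0.84), and Gng4, a G protein subunit (r = 0.80). They were picked from all probes for their likeness, so no test applies. Of the 5 olfactory bulb genes detected, only Cdhr1 lay above the 95th percentile of SD, which 4.1% of named genes exceeded. Gng13 (0.179), Meis2 (0.153), Calb2 (0.145) and Kctd12 (0.144) lay below it. The list was bright, with a median log2 signal of 13.44. Set against probes of like signal, its median member was at percentile 92.0 of SD, and at 54.6 without that adjustment. Among its 10 pairs of genes, 7 had a positive r, and the median r was 0.06. By the permutation test within strains described below, 1 of the 10 passed after adjustment, and 0 passed by rank as well. Over all 332 pairs tested in 7 lists, 145 passed.

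Genes of neuropeptides were the most variable of the groups with more than 3 detected members. Of the 8 hypothalamic neuropeptide and related genes detected, 6 exceeded the 95th percentile of pooled SD, a level that 4.1% of the 7223 named genes exceeded, and the median SD of the list was 0.329 against 0.141 over all named genes. Gal encodes galanin, a peptide of hypothalamic and brainstem neurons, and had a pooled SD of 0.63 (0.501 to 0.854). Its log2 signal was 9.00 to 10.67 in B6 (median 10.25), 9.06 to 11.05 in R8 (median 10.19), 8.52 to 10.26 in R2 (median 9.61) and 9.19 to 10.51 in D2 (median 9.71). The highest and lowest mouse of a strain thus differed 2.50-fold in D2 and 3.96-fold in R8. In B6 and in R8, 2 mice each lay far below the other 8.

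Cartpt, the precursor of the appetite-related CART peptide, had SDs of 0.51 and 0.50 at its 2 probes, whose deviations ran together at r = 0.97 (rho 0.96, adjusted p = 5.1e-05 by a permutation test within strains, whose smallest unadjusted p is 1e-05). Its B6 signal at the first probe ran from 8.51 through 9.80 to 10.42, and the R8 signal from 9.17 through 9.93 to 10.53. The range in R2, from 8.96 through 9.56 to 9.74, was narrower. Trh, the precursor of thyrotropin-releasing hormone, had an SD of 0.471, and 0.424 without D2 replicate 1, whose Trh signal of 8.64 was the lowest of D2. Pmch, the precursor of melanin-concentrating hormone of the lateral hypothalamus, had an SD of 0.374. It spread over 2.47-fold in B6 and 2.45-fold in R2 but 1.35-fold in D2, where its SD was 0.147. Nnat (0.284), an imprinted gene, and Hdc (0.256), the histamine-forming enzyme, followed. Npy (0.126) and Sst (0.090), peptides of interneurons spread through the cortex, lay below the median gene.

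Monoamine and acetylcholine genes were variable as well. Slc18a2, the vesicular transporter of dopamine, noradrenaline and serotonin, had an SD of 0.433, with 0.46, 0.41, 0.44 and 0.43 in B6, R8, R2 and D2. Its log2 signal reached from 8.37 to 9.83 in B6 and from 8.83 to 10.14 in R2. Slc5a7, the choline transporter of cholinergic endings, had 0.363 (0.308 without D2 replicate 1, its highest mouse), Ddc, the decarboxylase that makes dopamine and serotonin, 0.316, and Chat, which makes acetylcholine, 0.212. Of the 6 detected hindbrain and monoamine genes, 3 exceeded the 95th percentile, set against 4.1% of all named genes.

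**Figure D2:**
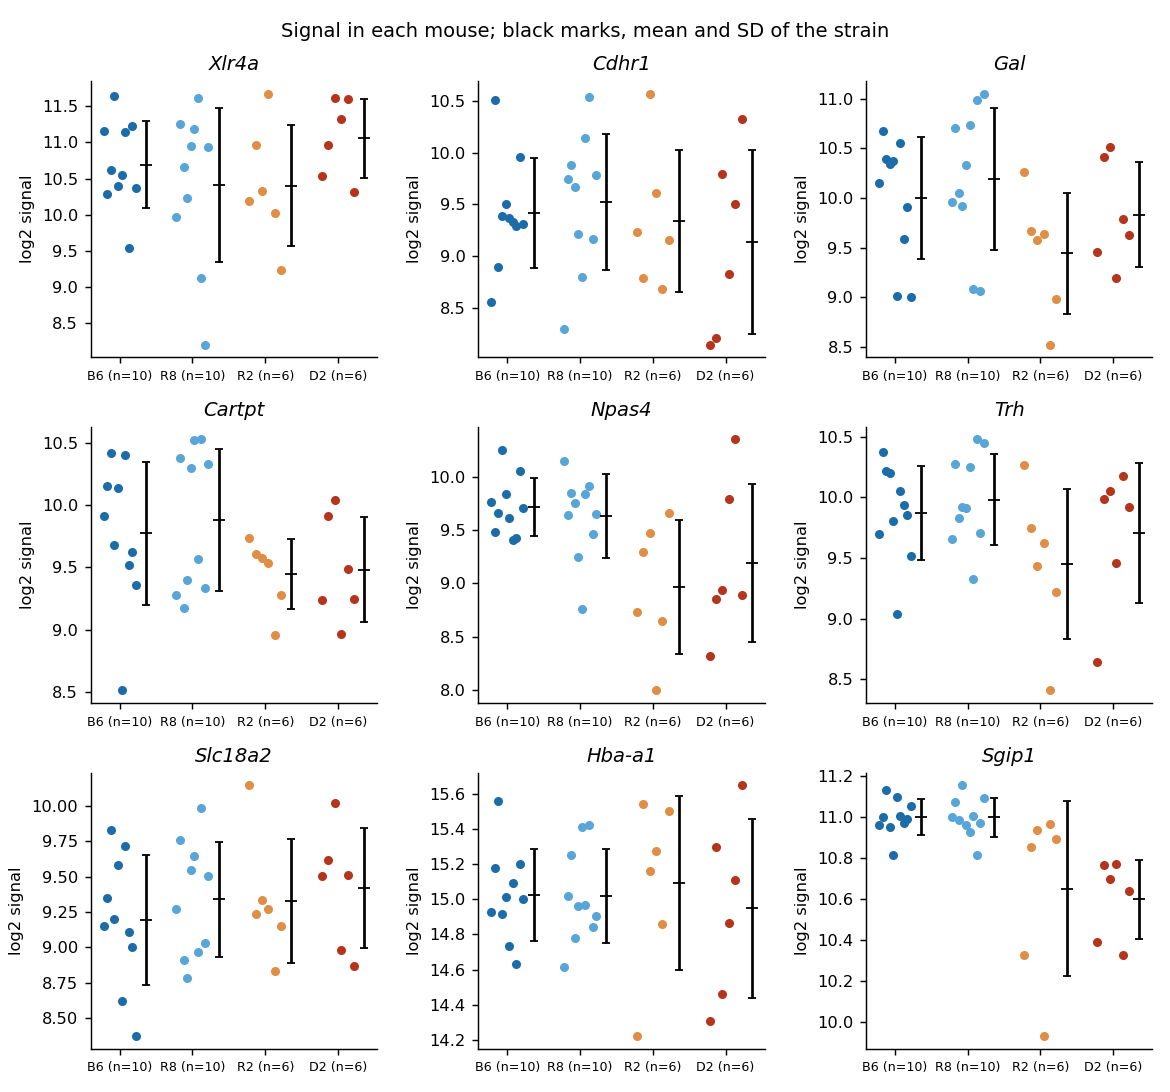
Each point is the log2 signal of one mouse for 9 genes, by strain on the x axis (B6 and R8, n = 10; R2 and D2, n = 6), with the strain mean and SD in black. Xlr4a, Cdhr1 and Gal span more than 1 log2 unit within every strain, whereas Sgip1 is tight in B6 and R8 and wide in R2.

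Some of these genes rose and fell in the same mice. Among the 20 most variable genes, 190 pairs were tested by permuting mice within strains, and 25 pairs passed an adjusted p of 0.05, 21 of them positive and 22 also by rank. Gal and Cartpt deviated together at r = 0.85 (rho 0.87, adjusted p = 2.1e-04, 2.4e-04 by rank), Gal and Trh at r = 0.81 (rho 0.85) and Gal and Slc18a2 at r = 0.83 (rho 0.85), with the same adjusted p. Gpx3, a secreted glutathione peroxidase, followed the same mice, with r = 0.90 to Gal, 0.85 to Cartpt and 0.85 to Trh. Of the 28 pairs of neuropeptide genes 15 passed an adjusted p of 0.05, of which 12 were positive. Whether or not they passed, 15 of the 28 had a positive r. The adjustment ran over 332 pairs in 7 lists, of which 145 passed. Within B6 and R8 alone r of Gal with Cartpt was 0.83, and within R2 and D2 alone 0.95. In B6 replicate 6, the mean deviation over the 8 neuropeptide genes was -0.567, and in R8 replicate 2 it was 0.293, the lowest and highest of all mice. The nearest partner of Gal beyond these, Gbx2 (r = 0.87), is a homeobox gene of thalamus and hindbrain, chosen here for its likeness.

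The start regions of 4 of these genes are shown because the genes varied together and a short motif can be looked up in them. The motif searched on both strands was TGACG, the core of the cyclic AMP response element that the factor CREB is known to bind, and its full palindrome TGACGTCA, which contains the core on each strand. Capitals mark these letters. The sequences are RefSeq's for GRCm38.p6, from 250 bases before the start to 50 after it, in the direction of the gene. They lie at chr19:3414495-3414794 (- strand) for Gal, chr13:99900634-99900933 (- strand) for Cartpt, chr6:92244601-92244900 (- strand) for Trh and chr19:59260628-59260927 (+ strand) for Slc18a2.
Gal: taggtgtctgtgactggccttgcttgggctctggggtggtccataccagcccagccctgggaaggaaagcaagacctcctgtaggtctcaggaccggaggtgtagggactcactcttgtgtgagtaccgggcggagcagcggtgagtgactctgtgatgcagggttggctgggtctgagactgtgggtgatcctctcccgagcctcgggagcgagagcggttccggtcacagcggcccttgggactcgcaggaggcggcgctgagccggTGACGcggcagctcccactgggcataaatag
Cartpt: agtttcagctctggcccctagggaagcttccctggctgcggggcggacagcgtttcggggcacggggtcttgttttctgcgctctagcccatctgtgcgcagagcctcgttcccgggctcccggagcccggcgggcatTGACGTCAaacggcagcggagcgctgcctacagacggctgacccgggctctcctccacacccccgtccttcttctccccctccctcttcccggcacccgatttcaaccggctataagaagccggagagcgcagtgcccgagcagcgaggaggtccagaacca
Trh: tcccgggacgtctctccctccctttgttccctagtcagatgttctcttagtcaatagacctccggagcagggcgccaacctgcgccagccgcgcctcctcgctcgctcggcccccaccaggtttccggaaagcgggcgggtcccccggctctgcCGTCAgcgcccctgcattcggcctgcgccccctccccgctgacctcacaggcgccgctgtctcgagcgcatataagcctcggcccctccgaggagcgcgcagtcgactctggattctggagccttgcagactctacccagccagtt
Slc18a2: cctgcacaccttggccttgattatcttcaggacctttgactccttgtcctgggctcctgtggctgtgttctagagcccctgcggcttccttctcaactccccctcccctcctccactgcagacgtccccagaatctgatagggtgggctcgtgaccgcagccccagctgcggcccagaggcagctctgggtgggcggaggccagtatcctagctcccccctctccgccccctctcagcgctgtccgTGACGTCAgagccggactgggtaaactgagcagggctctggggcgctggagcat
TGACG occurred once in Gal and in Trh, and the full palindrome once each in Cartpt and Slc18a2. Of the 32851 start regions in the same table, 20.8% hold TGACG and 1.79% hold TGACGTCA. A match describes the letters and not a bound site.

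Immediate early genes formed a second variable group. Of 28 on the array, 18 were detected in all brains, with a median SD of 0.231, and 6 exceeded the 95th percentile, against 4.1% of named genes. Npas4, an activity-dependent transcription factor of neurons, led with 0.49. Its log2 signal was 9.41 to 10.25 in B6 (median 9.69), 8.76 to 10.16 in R8 (median 9.71), 7.99 to 9.67 in R2 (median 9.01) and 8.32 to 10.36 in D2 (median 8.92), so that the lowest and highest mouse differed 1.80-fold in B6 and 4.11-fold in D2. Arc, a synaptic protein whose mRNA follows synaptic activity, had 0.352, Fos and Fosb, partners in the AP-1 factor, 0.331 and 0.313, and Egr2, a zinc finger factor, 0.310. Dusp1, a phosphatase of MAP kinases, had 0.258 and Junb 0.222. Egr1 lay at the other end of the list with 0.105, and Bdnf (0.141) and Homer1 (0.133) were near the median gene.

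Several immediate early genes deviated together. Of the 153 pairs of the 18 genes, 43 passed an adjusted p of 0.05 over the 332 pairs tested in 7 lists. Of these 43, 41 were positive. Over all 332 pairs 145 passed, a larger share than among the immediate early genes. The median r of the 153 pairs was 0.23, where the quartiles over all pairs of the 7223 named genes were -0.19 and 0.19. Arc followed Junb (r = 0.85, rho 0.80, adjusted p = 2.1e-04), Dusp1 (r = 0.82, rho 0.79, adjusted p = 1.2e-04) and Fos (r = 0.79, rho 0.78, adjusted p = 1.2e-04), and Npas4 followed Dusp1 (r = 0.82, rho 0.76, adjusted p = 1.2e-04) and Arc (r = 0.80, rho 0.71, adjusted p = 9.0e-04). In B6 and R8 alone r of Arc with Junb, Dusp1 and Npas4 was 0.595, 0.586 and 0.57, and in R2 and D2 alone it was 0.953, 0.919 and 0.883, a difference that was not tested. Without the 2 mice farthest from the median these correlations were 0.73 to 0.81. Mice that were high were B6 replicate 4, R8 replicate 1, R2 replicate 6 and D2 replicate 5, whose mean deviations over the 18 genes were 0.164, 0.129, 0.232 and 0.236, and R8 replicate 6 was lowest at -0.289.

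Arc and Npas4 were spread more widely on the D2 background. The SD of Arc was 0.17 in B6, 0.25 in R8, 0.46 in R2 and 0.57 in D2, and that of Npas4 was 0.27, 0.40, 0.63 and 0.74 in the same order. The median signal of Npas4, given above, was lower in R2 and D2 than in B6 and R8, and dimmer probes spread more in general. Whether its wider spread goes with the lower signal was not tested. The F test of unequal spread between the 4 strains, described below, gave Arc an adjusted p of 0.0943 and Npas4 0.345 with limma, so neither passed. In the contrast of the D2 with the B6 background, Arc passed (limma, adjusted p = 0.0437) and Npas4 did not. Fos had 0.31, 0.30, 0.35 and 0.39. The start regions of the 4 genes below are shown with the same motif in capitals, since CREB is one of the factors known to switch on immediate early genes after neuronal firing. They lie at chr19:4989922-4990221 (- strand) for Npas4, chr12:85473640-85473939 (+ strand) for Fos, chr17:26508423-26508722 (- strand) for Dusp1 and chr8:84978699-84978998 (- strand) for Junb.
Npas4: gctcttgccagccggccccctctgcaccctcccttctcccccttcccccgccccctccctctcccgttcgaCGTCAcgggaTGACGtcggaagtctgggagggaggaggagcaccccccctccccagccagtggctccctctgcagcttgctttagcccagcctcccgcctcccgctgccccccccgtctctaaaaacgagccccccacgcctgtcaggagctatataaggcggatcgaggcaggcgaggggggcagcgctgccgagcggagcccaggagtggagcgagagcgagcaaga
Fos: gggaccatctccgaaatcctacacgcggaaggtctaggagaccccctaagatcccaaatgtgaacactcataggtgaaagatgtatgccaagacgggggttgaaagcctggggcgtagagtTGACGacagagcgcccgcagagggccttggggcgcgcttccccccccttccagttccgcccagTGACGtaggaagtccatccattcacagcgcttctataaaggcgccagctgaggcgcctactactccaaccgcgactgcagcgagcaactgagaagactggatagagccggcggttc
Dusp1: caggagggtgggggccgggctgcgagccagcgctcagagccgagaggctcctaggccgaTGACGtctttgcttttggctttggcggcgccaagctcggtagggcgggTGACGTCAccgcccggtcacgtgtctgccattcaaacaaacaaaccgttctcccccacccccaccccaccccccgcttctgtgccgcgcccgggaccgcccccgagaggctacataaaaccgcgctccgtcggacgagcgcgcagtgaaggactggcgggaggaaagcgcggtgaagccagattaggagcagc
Junb: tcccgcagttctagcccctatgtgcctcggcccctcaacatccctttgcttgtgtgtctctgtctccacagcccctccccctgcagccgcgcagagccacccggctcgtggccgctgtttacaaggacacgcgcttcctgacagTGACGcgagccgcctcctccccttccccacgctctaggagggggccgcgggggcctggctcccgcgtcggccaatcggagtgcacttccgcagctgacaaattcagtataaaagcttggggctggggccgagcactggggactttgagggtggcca
TGACG was found 2 times in Npas4, 2 times in Fos and once in Junb, and Dusp1 held 1 full palindrome and a further core. Each of these 4 regions thus held a motif that 20.8% of all start regions hold.

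Cerebellar genes varied with the granule cells' markers in front. Of 13 detected, 5 exceeded the 95th percentile, against 4.1% of named genes, and the median SD was 0.222. Gabra6, the GABA-A receptor subunit of granule cells, had 0.329, the neurogenic factor Neurod1 0.320, Zic2, a zinc finger factor, 0.285, and Ppp1r17, a Purkinje cell protein, 0.277. The log2 signal of Gabra6 ran from 11.33 through 11.69 to 12.13 in B6, from 11.22 through 11.79 to 12.39 in R8, from 11.50 through 11.88 to 12.21 in R2 and from 11.63 through 12.22 to 12.94 in D2, where the highest was D2 replicate 1. Without that mouse the SD of Gabra6 was 0.297. Cacna1g was least variable, at 0.114. Of the 78 pairs of cerebellar genes 50 passed the threshold, 48 of them positive, with a median r of 0.50. Over the 332 pairs of the 7 lists 145 passed. Gabra6 went with Zic1 (r = 0.84, rho 0.82, adjusted p = 1.2e-04) and with Neurod1 (r = 0.84, rho 0.88, adjusted p = 1.2e-04).

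Many choroid plexus genes deviated together too. Of 10 detected, 3 exceeded the 95th percentile, against 4.1% of named genes: Kcne2, a potassium channel subunit (0.281), the water channel Aqp1 (0.277) and Ecrg4 (0.265). Of the 45 pairs 27 passed, against 145 of the 332 in all 7 lists, and all 27 were positive. Kl, which encodes klotho, and the chloride channel protein Clic6 deviated together at r = 0.74 (rho 0.79, adjusted p = 1.2e-04). B6 replicate 8 was lowest, with a mean deviation of -0.479 over the list, and held the lowest B6 signal of Kcne2, 8.49 against a strain median of 9.16. The median SD of the list was 0.282 in B6, against 0.179 in R8, 0.165 in R2 and 0.172 in D2, a difference that was not tested for the list. Ttr, the most abundant choroid plexus transcript, had an SD of 0.038, but its raw signal was 95.7% to 99.5% of the array's highest on every array, close to saturation, and its SD is no measure of how far the transcript varied. After median scaling its SD was 0.174.

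Globin transcripts varied in step. Hba-a1, the alpha chain of haemoglobin, was the one gene of the top 20 in the brightest 20% of probes, with an SD of 0.367, and Hbb-bt, a beta chain, had 0.348. Hba-a1 ran from 14.63 through 15.01 to 15.56 in B6, from 14.61 through 14.96 to 15.42 in R8, from 14.22 through 15.22 to 15.54 in R2 and from 14.31 through 14.99 to 15.65 in D2. The lowest mice were R2 replicate 1 and D2 replicate 1. The globins deviated together at r = 0.73 (rho 0.76, adjusted p = 1.2e-04), while Fech, of haem synthesis, followed neither (r = -0.30 and 0.10, adjusted p = 0.198 and 0.684). Hbb-bt differed strongly between strains, and only 10.7% of its variance lay within them.

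**Figure D3:**
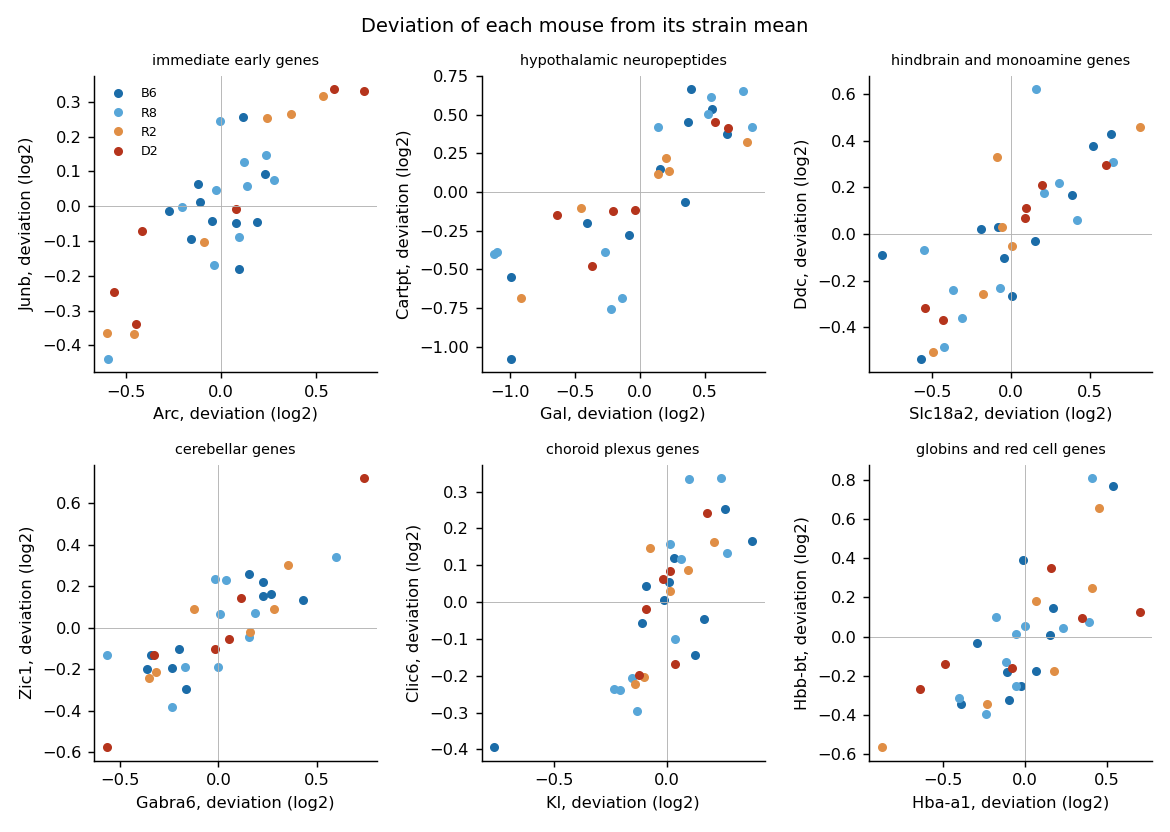
Each point is one mouse (n = 32), with the deviation of one gene from its strain mean on the x axis and of a second gene of the same list on the y axis, both in log2 units and coloured by strain. Deviations of both genes rise together in all 6 panels, with r from 0.73 for the globins to 0.85 for Arc and Junb.

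Other lists had lower median SDs, though not all had fewer members above the 95th percentile. No member exceeded the 95th percentile, which 4.1% of named genes did, among 76 subunits of oxidative phosphorylation (median SD 0.122), 51 cytosolic ribosomal proteins (0.114) and 67 mitochondrial ribosomal proteins (0.128), against a median of 0.141 over all named genes. Set against probes of like signal, the median members of these lists were at percentiles 67.4, 59.1 and 40.8 of SD. None of 12 striatal (median SD 0.16), 11 microglial (0.182) and 14 clock genes (0.169) exceeded it. Of 31 proteasome subunits 1 did (3.23%), and of 16 neuronal genes 1 (6.25%), the glutamate transporter Slc17a7 (0.251). These counts were near the share over all genes. Set against probes of like signal, the median striatal, microglial and clock genes were at percentiles 71.5, 74.4 and 84.9 of SD. The median proteasome and neuronal genes were at 52.8 and 74.7, and at 26.7 and 23.3 without that adjustment. Of the 8 interferon-induced genes, 3 exceeded it, Oasl2 (0.308), Gbp3 (0.256) and Ifit2 (0.253). Gfap, the intermediate filament of astrocytes, had 0.275. Among oligodendrocyte genes, each at its brightest probe, Apod, a lipid carrier, was highest (0.267). Mobp and Mog, myelin components, had 0.22 and 0.197. Dimmer probes had 0.2675 for Mobp and 0.253 for Mog, with r = 0.40 and 0.87 to the brightest. The endoplasmic reticulum chaperones Calr (0.343) and Hspa5 (0.247) were variable, whereas Xbp1 (0.086), Pdia3 (0.092) and Herpud1 (0.097) lay among the steadier genes.

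**Figure D4:**
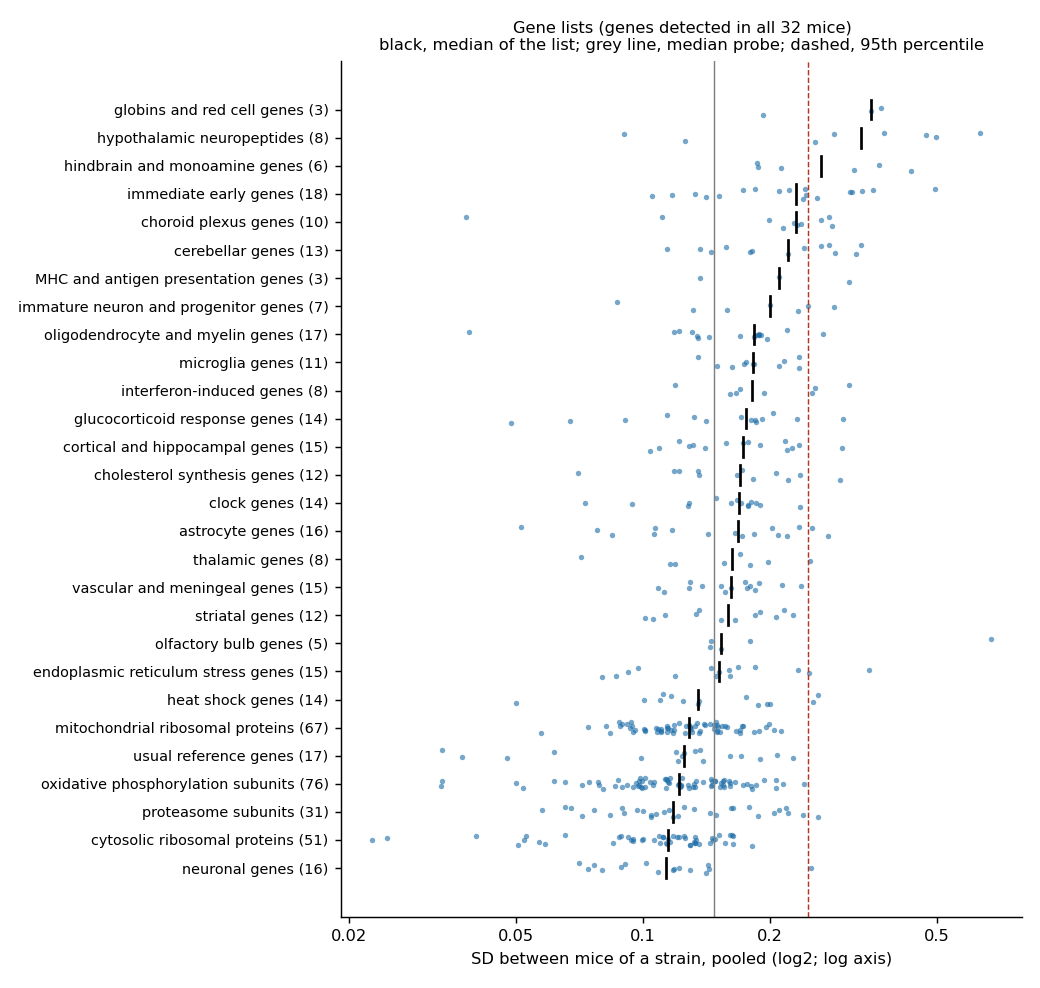
Each blue point is a gene of a list, placed by its pooled within-strain SD (log2 units, log axis), with the number of detected genes in parentheses and the list median in black; the grey line is the median probe (0.147) and the dashed line the 95th percentile (0.247). Globin, neuropeptide, monoamine and immediate early genes lie to the right, and ribosomal, proteasome and neuronal genes to the left. The SDs are not adjusted for signal.

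Genes in common use as references had a median SD of 0.125, against 0.141 over all named genes. None of the 17 detected exceeded the 95th percentile (0.247) at its brightest probe. A dimmer probe of Ywhaz did, with an SD of 0.296 against 0.047 at the brightest, and their deviations ran together at only r = 0.15. The raw signal of the brightest was 77.5% to 99.6% of the array's highest. Gapdh, of glycolysis, had an SD of 0.037 and Atp5b, of ATP synthase, 0.033, both near the top of the arrays' range, and after median scaling these were 0.121 and 0.139. Eef1a1, a translation elongation factor, had 0.227, Top1 0.208 and Tfrc 0.190, at mean log2 signals of 9.55, 9.96 and 12.7. Gapdh and Atp5b lay at 16.06 and 16.09, so their SDs are not set against these at like signal. The median SD was 0.165 among probes in the signal range of Eef1a1 and Top1 (9.516 to 10.41), and 0.107 in that of Tfrc (12.48 to 16.11). Actb, beta actin, depended on the probe. Its 5 detected probes had SDs of 0.429, 0.423, 0.171, 0.144 and 0.102. The most variable pair deviated together (r = 0.97, rho 0.93, adjusted p = 5.0e-05 over 10 pairs), and the third ran with them at r = 0.74 and 0.78. The least variable pair ran with each other (r = 0.62, rho 0.63, adjusted p = 9.0e-04) but not with the first pair, at r between -0.04 and 0.09. At the most variable probe R2 replicate 1 (11.54, others 12.36 to 12.77) and D2 replicate 1 (11.19, others 12.10 to 12.59) stood far below their strains. Which transcript each probe reads was not tested.

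Probes of the same gene agreed moderately in general. Over 1698 genes with more than 1 detected probe, the median correlation of the deviations at their 2 brightest probes was 0.29. The quartiles were 0.07 and 0.49. In the 20% of genes whose less variable probe of the 2 had the largest SDs, the median was 0.35. The 2 probes of Ip6k2, an inositol phosphate kinase, had SDs of 0.379 and 0.373 and r = 0.81 (rho 0.83, adjusted p = 5.1e-05). Of the 20 most variable genes, 14 rest on 1 detected probe. Where there was a second, Cartpt and Ip6k2 had it in step, whereas Golga7 (0.365 and 0.168, r = -0.24, rho -0.21, adjusted p = 0.275), Slc22a17 (0.359 and 0.086, r = 0.14, rho 0.12, adjusted p = 0.561) and Gm14325 (0.408 and 0.175, r = 0.39, rho 0.17, adjusted p = 0.162) did not have their spread repeated by the brighter probe.

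The smallest SDs were those of the brightest probes. They belonged to Rplp1 (0.023), Rpl41 (0.025), Tuba1b (0.027), Camk2n1 (0.029) and Prnp (0.029), that is, 2 ribosomal proteins, an alpha tubulin, an inhibitor of CaM kinase II and the prion protein. They were followed by Ttc3, Atp5g3, Atp5b, Zcchc18, Gapdh, Ttr, Mbp, Snrpn, Cst3 and Rpl5, up to 0.040. Most of these probes were close to the highest signals an array gave. The highest raw signal of an array was between 70816 and 73390, and the raw signals of the 15 genes were 50.8% to 100% of it, those of Rplp1 93.6% to 100%. After median scaling, without the quantile step, their SDs were 0.0766 to 0.179, against 0.153 for the median probe. Then 3 of the 15, Zcchc18 (0.0766), Rpl5 (0.0778) and Ttc3 (0.0896), were still among the 5% least variable probes, while 4, Rplp1 (0.162), Rpl41 (0.165), Ttr (0.174) and Mbp (0.179), were above the median probe. Dimmer probes of the same genes spread more, with 0.259 for Mbp (r = 0.18 with the first) and 0.128 for Snrpn (r = 0.06). The small SDs at such probes are no measure of steady transcripts. Of the 100 least variable probes, 98 lay in the brightest 20%, and 69 after median scaling. Among genes of middle signal, the SD of Slc25a20, a carnitine carrier of mitochondria, was 44.4% of that expected of probes of like signal (SD 0.062) and that of Vps35l 44.6% (SD 0.059). On the same measure Xlr4a had 555%, Hba-a1 400%, Gal 380%, Cdhr1 362% and Arc 285%.

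The rankings of the strains agreed in part. Spearman's rho of the SDs over the 9963 probes was 0.62 for B6 and R8, 0.53 for B6 and R2, 0.50 for R8 and R2, 0.43 for R8 and D2, 0.42 for B6 and D2, and 0.33 for R2 and D2. Probes are not independent, and these values describe the tables without a test. Leaving out D2 replicate 1 raised the values with D2 to 0.49, 0.49 and 0.43. The agreement was smaller once SD had been adjusted for signal, with rho at 0.40 for B6 and R8 and 0.19 for R2 and D2. The pair of strains with the most mice had the highest rho.

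Of the 498 probes in the top 5% of each strain, B6 and R8 shared 35.5%, B6 and R2 31.3%, and R2 and D2 18.3%. In all 4 strains 29 probes, or 0.291% of those tested, were in the top 5%, and 36 without D2 replicate 1. They stand for 27 genes: 14 of the 20 most variable (among them Xlr4a, Cdhr1, Gal, Cartpt, Npas4, Trh, Slc18a2, Actb and Hba-a1) and others such as Fos, Egr2, Gabra6 and Gbx2. Among the 5% least variable in all strains were 38 probes (0.381%), all in the brightest 20%, including Rplp1, Rpl41, Gapdh, Mt1, Fth1 and Aldoc. A further 100 probes were in the top 5% of 3 strains. Some large SDs came from 1 strain. Gm14325 and Zfr had their largest SD in D2, at 0.69 and 0.65, with D2 replicate 1 as the highest mouse, and without it these were 0.42 and 0.36. Neither passed the test of unequal spread below (limma, adjusted p = 0.415 and 0.4115).

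**Figure D5:**
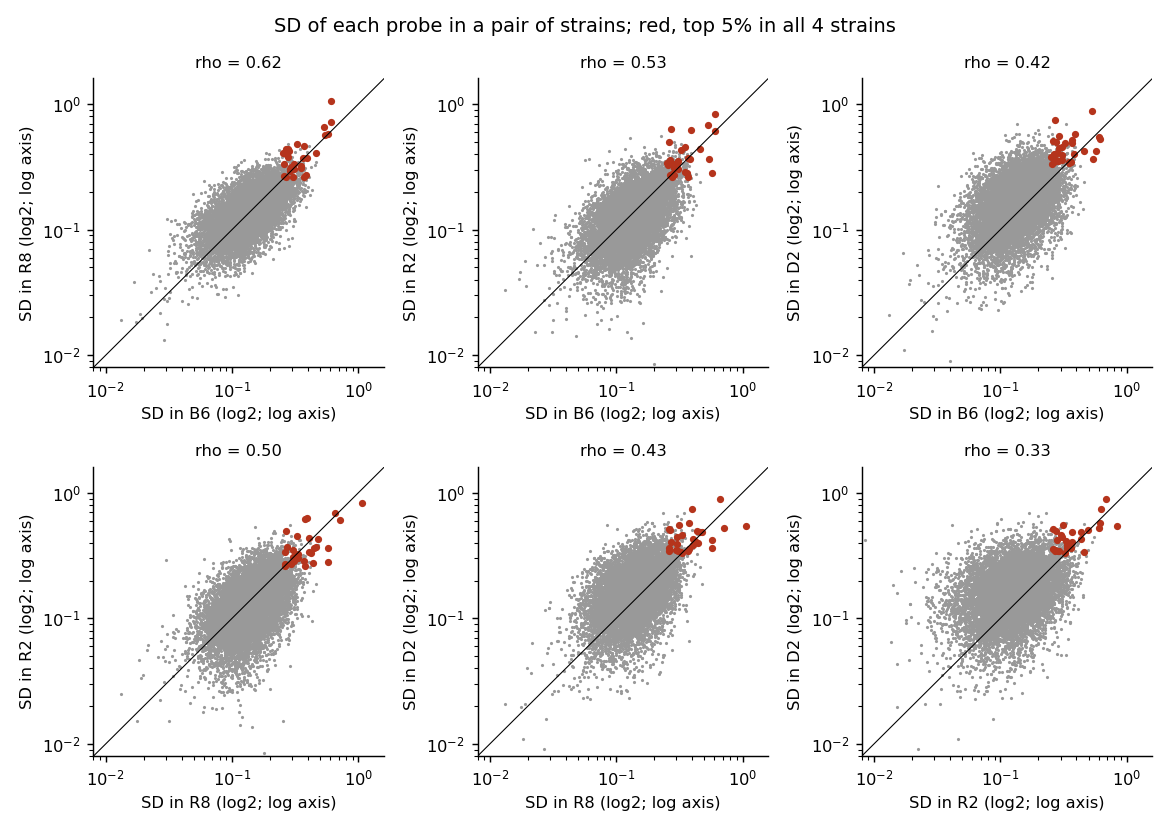
Each point is a probe (9963), with its SD between mice of one strain on the x axis and of another on the y axis, both in log2 units on log axes; red points are the 29 probes in the top 5% of all 4 strains and the line marks equal SDs. The cloud is narrowest for B6 and R8 (rho 0.62) and widest for R2 and D2 (rho 0.33).

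Whether a gene was more variable in one strain than another was tested by comparing absolute deviations between the 4 strains (limma, F test, Benjamini-Hochberg adjustment). One probe of 9963 passed, or 0.01%, and 1066 had an unadjusted p under 0.05. It reads Sgip1, a protein of clathrin-mediated endocytosis in brain, on chr4:102741302-102977426 (GRCm38.p6), with an adjusted p of 0.0349. In B6 its log2 signal was 10.82 to 11.13 (median 10.99, SD 0.087) and in R8 10.81 to 11.15 (median 10.99, SD 0.094). In R2 it was 9.93 to 10.97 (median 10.87, SD 0.425) and in D2 10.33 to 10.77 (median 10.67, SD 0.192). The low mice were R2 replicates 4 and 1 and D2 replicates 5 and 1, and the remaining mice of both strains lay close together.

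A second Sgip1 probe deviated in the same mice (r = 0.74, rho 0.73, adjusted p = 6.3e-04 over the 51 named genes with 2 probes), with SDs of 0.074, 0.084, 0.252 and 0.344 in B6, R8, R2 and D2. Its F test gave an adjusted p of 0.0904. In the contrast of the D2 with the B6 background 4 probes passed (0.0401%), and 10 passed without D2 replicate 1 (0.1%). The 4 were both probes of Sgip1 (limma, adjusted p = 0.0321 and 0.0437), the Arc probe (0.0437) and an unnamed probe (0.0437). A probe that did not pass is not shown to have equal spread. The call of Sgip1 by the F test was not firm. It held for 15 of the 32 mice left out in turn. Leaving out R2 replicate 4 gave an adjusted p of 0.374 and R2 replicate 1 gave 0.214. Without D2 replicate 1 no probe passed, Sgip1 had 0.0542, and 736 probes had an unadjusted p under 0.05. Leaving out one of B6 replicates 1, 2, 4, 7, 8, 9 and 10 or R8 replicates 1, 2, 3, 5, 7, 9 and 10 gave 0.0524 to 0.0686. The number of probes that passed rose to 26 without D2 replicate 4, to 9 and 8 without D2 replicates 2 and 5, and to 5 without R2 replicate 3 or D2 replicate 6. It was 3 without D2 replicate 3 or R2 replicate 6 and 2 without R2 replicate 5 or R8 replicates 4 or 6. Next in order were Abhd16a (adjusted p = 0.0734), with an SD of 0.030 in R8 and 0.289 in R2, and Cd200, an immune regulator on neurons, with 0.693 in D2, or 0.434 without D2 replicate 1.

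No difference in overall spread was detected between backgrounds or between a congenic and its background strain. The mean absolute deviation per mouse was 0.130 ± 0.035 (SD, n = 12) on the D2 background and 0.118 ± 0.012 (n = 20) on the B6 background, a difference of 0.0123 (permutation test, two-sided p = 0.144, adjusted p = 0.216 over 3 comparisons). Without D2 replicate 1 the difference was under 0.0001 (p = 0.995). R8 exceeded B6 by 0.0034 (permutation test, p = 0.529). D2 exceeded R2 by 0.0278 (exact permutation test, n = 6 each, p = 0.139), by 0.0035 without D2 replicate 1 (exact p = 0.678) and by 0.0382 without D2 replicate 4 (exact p = 0.0195).

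The deviations shared a few axes over the mice. The first principal component held 18.95% of their variance and the second 12.12%, and without D2 replicate 1 they held 18.37% and 7.945%. At one end of the first lay Gm14325, Zfr, Eid1, Gpatch2l and Cd200, and at the other Actb, Arpc5, a subunit of the actin-nucleating complex, and Hba-a1. Gm14325 and Zfr deviated together at r = 0.88 (rho 0.83, adjusted p = 2.1e-04, r = 0.80 without D2 replicate 1), and Gm14325 opposite to Actb at r = -0.58 (rho -0.50, adjusted p = 0.0176, r = -0.43 without D2 replicate 1). Gal, Trh, Cdhr1 and Cartpt lay at one end of the second. Scores on the second component went with the order of the arrays' columns in the deposited table (r = -0.51, p = 0.0042, adjusted p = 0.0339 over 8 relations, rho -0.46, adjusted p = 0.0931), and less within blocks of 8 columns (r = -0.35). Within such blocks the correlation of Gal with Cartpt was 0.85, and what the column order stands for is not given.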

How the data were processed

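Whole brain RNA from 32 mice was extracted with Trizol and amplified to biotinylated cRNA, 1 array per mouse. The main table is the scanner software's mean bead intensity, which the authors deposited before any normalization. The detection p-value of every signal was deposited with it. Quantile-normalized intensity as deposited by the authors, for which the methods name lumi, was tried as an alternative.

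In R 4.3.3, neqc of limma 3.58.1 was run once on all 32 arrays. It estimates the negative controls by means of the detection p-values, removes background, adds an offset of 16, equalizes quantiles and returns log2 signals. Of 25697 probes 23978 have 1 gene symbol in the platform annotation and 1719 have none, and 570 of the 9963 detected probes are unnamed. Coordinates and start regions are RefSeq's for GRCm38.p6, and 8 of 9 start regions looked up were found. Intervals of pooled SDs are 95% chi-square intervals with 28 degrees of freedom and assume normal deviations. Unequal spread was tested with lmFit and eBayes on absolute deviations scaled for strain size, 1 F test per probe with Benjamini-Hochberg adjustment over 9963 probes. Correlations across mice were tested on deviations by 100000 permutations within strains, two-sided. Mean absolute deviations per mouse were scaled for strain size in the same way as for unequal spread. Their differences were tested, two-sided, by permuting mice between the groups compared. That test took 100000 permutations, or all splits where groups were small. The scripts were tested on simulated data. No 2 arrays held the same values.

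Genes named were the 20 most and 15 least variable, the 5 most variable of each strain, the 4 most variable and the least variable of each of 29 lists, the usual reference genes, those with the smallest p of unequal spread and those at the ends of the first components. The members and lists were chosen with earlier results of these data known. Genes outside this rule (Dusp1, Junb, Egr2, Bdnf, Homer1, Zic1, Kl, Clic6, Nnat, Hdc, Gbx2, Dlx1, Gng4, Gng13, Meis2, Kctd12, Pdia3, Xbp1, Herpud1, Slc25a20, Vps35l, Mt1, Fth1 and Aldoc, among others) were named after their values were seen. In a list the probe with the highest mean signal stands for a gene. The number of arrays limits the precision. The labels do not say whether mice of a strain shared a cage or litter. The tests take the mice as independent, which could not be checked.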

Additional observations from a re-analysis of the deposited data

Results flagged for a closer look

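In 168 groups of values (the mean deviation per mouse, and the signal of 41 probes named above, in each strain), the highest or lowest mouse was set against the gap to its nearest neighbour by Dixon's ratio, which chance exceeds in about 1 of 20 groups. It was exceeded in 10 groups, or 5.95%. The mean absolute deviation was set apart in R2 replicate 1 (0.142, others 0.101 to 0.116) and in D2 replicate 1 (0.231, others 0.104 to 0.140). Actb at its most variable probe was far below the rest in the same 2 mice, at 11.54 in R2 and 11.19 in D2. Cacng7, an auxiliary subunit of AMPA receptors, was far above in D2 replicate 1 (10.35, others 9.03 to 9.34).

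The other groups were bright probes near the highest signals an array gave, where a small spread is no measure of a steady transcript. Mbp, myelin basic protein, was at 15.99 in R2 replicate 4 against 16.10 to 16.12 in the others, and Ttr in the same mouse was at 15.97 against 16.07 to 16.11. Ttr was at 15.97 in R8 replicate 2 as well, Atp5b at 16.00 in R8 replicate 1 and Rpl41 at 16.06 in B6 replicate 9. The spread of Sgip1 differed between strains with an adjusted p of 0.0349 (limma, F test), the single probe of 9963 to do so.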

How the results depend on the processing

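The median SDs, the mean rho between strains (0.471), the 29 probes in the top 5% of all strains, the agreement of same-gene probes (0.293) and the tests of mean deviation per mouse were recomputed under other settings. With the authors' normalized values the median SD was 0.1076 in B6, 0.1117 in R8 and 0.1045 in R2 and the mean rho 0.323, and without background correction these were 0.1077, 0.1117, 0.1045 and 0.323. With detection at p under 0.05 in at least 16 arrays (13704 probes) they were 0.156, 0.161, 0.153 and 0.609, with 3 probes of unequal spread and a same-gene agreement of 0.227. Among the brighter probes (4981) the medians were 0.1076, 0.113 and 0.103, 13 probes were in the top 5% of all strains and the agreement was 0.415. By the median absolute deviation the medians were 0.123 in R8 and 0.106 in R2, the mean rho 0.324 and the shared probes 13. Adjusted for signal the mean rho was 0.30, and with replicates 1 to 6 only the shared probes were 19.

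Unequal spread was the least settled result. The count was 0 with median scaling, with deviations from the strain median, with squared deviations, with replicates 1 to 6 only and for the contrasts of R8 with B6 and of D2 with R2, and 4 for the contrast of backgrounds. It was 0 with a term for blocks of 8 columns of the deposited table, an alternative chosen after seeing the data. Leaving out 1 mouse gave 0 to 26 probes, with 26 without D2 replicate 4. Over the same 32 refits the shared probes numbered 20 to 36, the mean rho was 0.435 to 0.511, and the difference of D2 from R2 was 0.0035 to 0.0382, past the threshold only without D2 replicate 4.

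R8 minus B6 in mean deviation, 0.0034 with a permutation p of 0.529, turned to -0.00052 with replicates 1 to 6 only (p = 0.939) and to -0.0061 with a replicate block (p = 0.476). Replicate numbers did not pair the mice: over 40 pairs of same-numbered mice the correlation of deviations was -0.395 to 0.479, with a median of -0.0008. With the replicate block 1 probe was called, but Sgip1 had an adjusted p of 0.487, and 38 probes were in the top 5% of all strains. Median scaling, the authors' values and no background correction moved 15, 16 and 16 of 35 named SDs outside their intervals. Under median scaling these 15 were the least variable genes, whose SDs rose to between 0.0766 and 0.179. Brightness over background limits what can be said of dim probes.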
